A study of Mus musculus with 8 samples.

Results

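The imprinted growth genes were a list of 10 mouse genes, H19, Igf2, Igf2r, Meg3, Grb10, Ndn, Peg3, Plagl1, Mest and Impact, taken by name from the 37980 gene rows of the series. The rule used no measured value, but the list was chosen with earlier results of these data known. All 10 names matched a row. RNA of multipotent progenitors (MPPs) from the bone marrow of C57BL/6 mice was measured by sequencing, in 4 libraries of the genotype Nup98-Hoxa10hd fusion gene (NA) and 4 libraries of the genotype WT. The fusion was expressed from the Rosa26 locus and switched on by Vav-Cre, a recombinase that is active in blood cells in general and not in MPPs alone, and the WT cells came from age-matched CD45.2 mice. Each library was made from amplified cDNA of 1000 cells with the phenotype Lin-CD48-ckit+Sca1+CD135+CD150-. The labels give neither the age in weeks nor the sex, and nothing in them says that the libraries of a group came from separate animals, so that p-values here measure only the spread between these libraries. Libraries are called NA1 to NA4 and WT1 to WT4 after their titles.

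Imprinted genes are expressed mainly or wholly from the copy inherited from 1 parent, because methylation set in the germ line differs between the parental copies. Many of them act on growth: paternally expressed genes such as Igf2 tend to promote it in the fetus, and maternally expressed genes such as Igf2r, Grb10 and H19 tend to restrain it. Several are known for high expression in quiescent long-term haematopoietic stem cells. The counts do not separate the parental copies, so they give the total RNA of a gene and not its imprinting.

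The following facts of the series bear on the values. The estimated depth was 3876893 to 4916987 reads per library, and the deposited values are normalised counts, which are estimated reads divided by 1 factor per library. NA4 and WT4 lay between the other 3 libraries of their group in 65.4% and 75.5% of 7238 well expressed genes, against 37.6% to 51.3% for the other 6 libraries, so the test of each of the 10 genes that was tested, and each call in the other imprinted, IGF pathway and imprint maintenance lists, is also given without NA4 and WT4. Xist had a mean normalised count of 1.92 (NA) and 1104 (WT) and Eif2s3y, a Y-linked gene, of 604 and 0.222, so sex and genotype cannot be told apart. Hoxa10, part of which is in the fusion, averaged 324 normalised counts in NA and 139 in WT libraries (limma, adjusted p = 2.57e-05).

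The test found 3 of the imprinted genes to differ between the groups. Igf2r, the receptor that removes IGF2 from the cell surface, averaged 167 ± 24.3 normalised counts in the NA group against 99.3 ± 16.7 in the WT group (mean ± SD, n = 4 each), and Impact, which restrains the amino acid sensor GCN2, was at 729 ± 180 and 386 ± 134. Grb10, an adaptor that dampens signalling from the insulin and IGF1 receptors, was lower, at 213 ± 13.7 against 296 ± 44.0. Igf2, Meg3 and Ndn were measured in both groups and did not pass the test, and H19, Peg3, Plagl1 and Mest were too low to be tested.

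The test was limma on log2(normalised count + 1) with a mean-variance trend, over the 11451 genes that reached 10 normalised counts in 4 or more libraries, and a gene was called at a Benjamini-Hochberg adjusted p below 0.05. Of the 10 imprinted genes, 6 passed this filter and 3 of these were called, 2 higher and 1 lower in NA MPPs. Over all genes tested, 17.9% were called, 10.1% higher and 7.87% lower. The 4 NA values and the 4 WT values did not overlap for 2 of the 6, Igf2r and Grb10, and 22.0% of all genes tested had no overlap. The median log2 fold change was 0.31 over the 6 tested imprinted genes and -0.01 over all genes tested. Without NA4 and WT4 0 of the 6 were called by limma, and 4.58% of all genes tested were called.

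**Figure D1:**
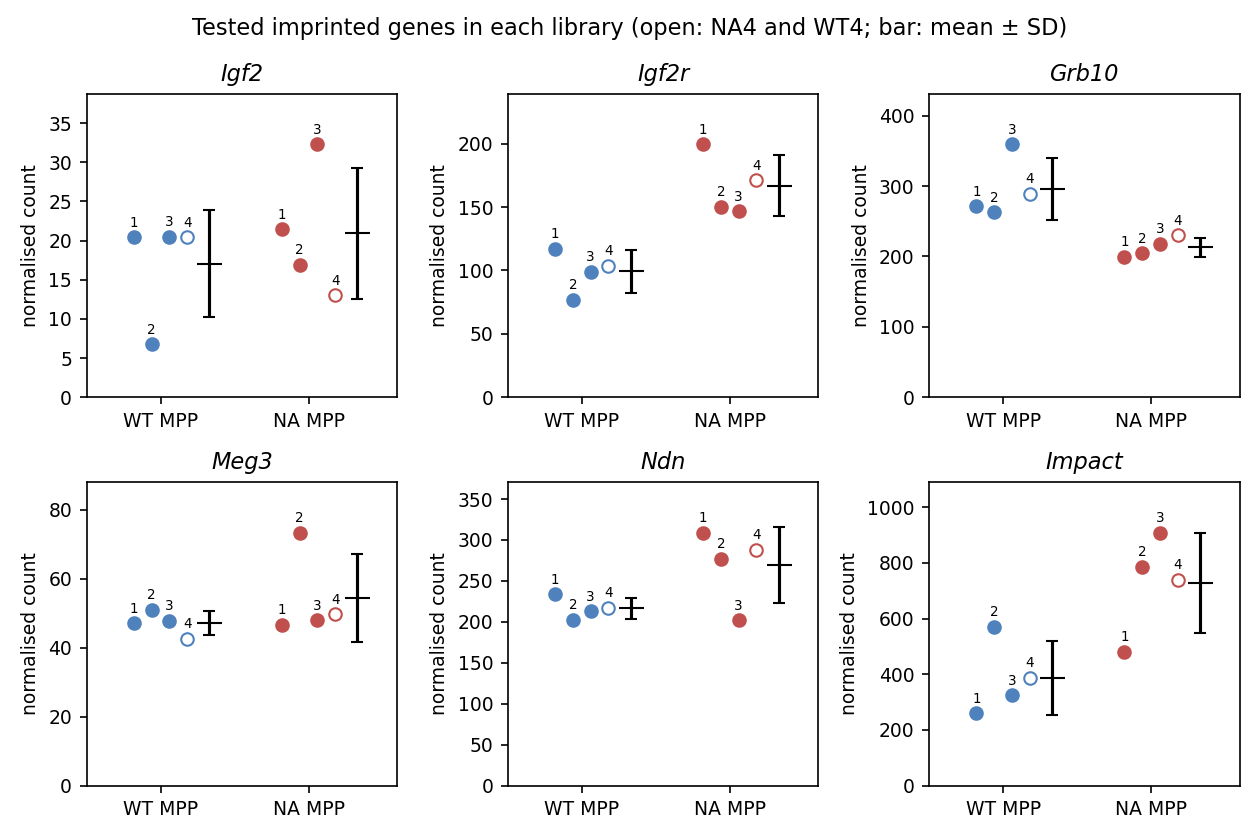
Normalised counts of the 6 tested imprinted genes in each WT and NA MPP library, with 1 point per library labelled by its number, open points for NA4 and WT4, and the mean ± SD (n = 4) beside them. The NA points lie above the WT points for Igf2r and below them for Grb10, while the groups overlap for the other 4 genes.

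Promoter sequences are shown for Igf2r and Grb10, the pair of called genes for which one is given here, and for Meg3, which was not called. Imprinted genes are marked at CpG sites, but these windows are promoters and were not chosen as the marked regions. Methylation was not measured. The sequences are the 250 bases before a RefSeq transcript start in GRCm38.p6, on the strand of the gene and 5′ to 3′, and capitals mark CG. None of these windows overlaps a GENCODE exon of its own gene. They lie at chr17:12769707-12769956 on the minus strand (Igf2r), chr11:12037421-12037670 on the minus strand (Grb10) and chr12:109540746-109540995 on the plus strand (Meg3).
Igf2r: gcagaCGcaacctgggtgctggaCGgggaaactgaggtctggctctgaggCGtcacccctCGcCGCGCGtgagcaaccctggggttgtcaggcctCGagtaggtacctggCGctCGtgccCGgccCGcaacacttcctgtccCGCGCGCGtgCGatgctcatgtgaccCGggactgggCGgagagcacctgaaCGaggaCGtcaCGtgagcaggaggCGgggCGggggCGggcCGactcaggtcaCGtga
Grb10: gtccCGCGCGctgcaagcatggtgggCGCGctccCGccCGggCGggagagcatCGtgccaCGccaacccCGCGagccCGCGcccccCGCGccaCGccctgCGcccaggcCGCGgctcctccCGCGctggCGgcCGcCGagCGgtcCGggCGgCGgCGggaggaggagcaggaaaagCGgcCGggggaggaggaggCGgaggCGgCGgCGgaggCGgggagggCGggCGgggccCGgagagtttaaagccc
Meg3: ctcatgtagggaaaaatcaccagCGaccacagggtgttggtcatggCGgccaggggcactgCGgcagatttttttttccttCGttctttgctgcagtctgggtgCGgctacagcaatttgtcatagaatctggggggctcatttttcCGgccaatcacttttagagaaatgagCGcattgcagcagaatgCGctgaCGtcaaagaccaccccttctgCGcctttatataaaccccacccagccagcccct
The Grb10 window held 40 CpG sites and the Igf2r window 27, and 98.7% and 91.4% of 32851 RefSeq promoter windows of this length held fewer. The Meg3 window held 10 CpG sites, near the median of 6. The letters TGCCGC, the core recognised by the imprint-protecting protein ZFP57 when methylated, were searched on both strands and found 1 time in the Meg3 window and 0 times in the other 2 windows; 8.68% of all windows held them. The letters TTTAT, the core of posterior HOX proteins such as HOXA10, were searched in the same way, and 37.3% of all windows held them. They were found 0 times in the Igf2r and Grb10 windows and 2 times in the Meg3 window. The 2 matches are the opposite strands of 1 palindrome, tttatataaa, so they mark 1 stretch and not a pair of separate sites. Binding of HOXA10 to it was not tested. RefSeq lists a second start for Grb10 and for Meg3, and the data do not say which start was used. The window before the second Meg3 start held 0 CpG sites, 0 matches of TGCCGC and 1 of TTTAT. The window before the second Grb10 start held 8 CpG sites and 0 matches of either.

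In the IGF axis, Igf2 is the ligand, a fetal growth factor. It lies on chromosome 7 (ENSMUSG00000048583; mm10, 142650766 to 142666816, minus strand). Its normalised counts were 21.5, 16.9, 32.3 and 12.99 in NA1 to NA4 and 20.4, 6.79, 20.5 and 20.4 in WT1 to WT4. The groups overlapped, with the highest value in NA3 and the lowest in WT2. The log2 fold change of NA over WT was 0.32 with a standard error of 0.45 and a 95% interval from -0.64 to 1.29 (limma, adjusted p = 0.655), which reaches well to either side of 0. Without WT2 the log2 fold change was -0.04, without NA3 it was 0.10, and without NA4 and WT4 0.63 (adjusted p = 0.587). The annotation has another protein-coding gene, Gm49394, on the same strand with 3596 shared exon bases, for which the table has no row, so the assignment of Igf2 reads is uncertain.

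Igf2r, the mannose 6-phosphate receptor that binds IGF2 and carries it to the lysosome, lies on chromosome 17 (ENSMUSG00000023830; 12682406 to 12769664, minus strand). Its normalised counts were 199.8, 150.4, 146.8 and 171.3 in NA1 to NA4 and 117.2, 77.0, 99.1 and 103.9 in WT1 to WT4. Every NA library was above every WT library, and NA1 and WT1 were the highest of their groups. The mean ratio was 1.68, and the log2 fold change was 0.75 with a standard error of 0.18 (95% interval 0.37 to 1.13; limma, adjusted p = 0.0103). Without NA4 and WT4 the log2 fold change was 0.76 with adjusted p = 0.0944.

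Airn, the noncoding RNA that runs antisense through Igf2r on the paternal copy, shares no exon base with it. Airn was at 13.1, 46.1, 18.5 and 27.2 normalised counts in NA1 to NA4 and 16.9, 14.7, 17.1 and 17.8 in WT1 to WT4. NA2 to NA4 were above every WT library, NA3 only narrowly, and NA1 was below them all, and the log2 fold change of 0.48 did not pass (limma, adjusted p = 0.439, and 0.706 without NA4 and WT4). The highest Igf2r value was in NA1, the library in which Airn was lowest, while WT2 was the lowest WT library for both. A relation between Airn and Igf2r was not tested. Strand use in the counting is not given in the sources used here, so intronic reads of the pair could not be told apart if any were counted.

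Grb10, which binds the activated insulin and IGF1 receptors and restrains growth, lies on chromosome 11 (ENSMUSG00000020176; 11930508 to 12038683, minus strand). Its normalised counts were 199.8, 204.9, 217.9 and 230.3 in NA1 to NA4 and 271.7, 262.7, 359.8 and 289.4 in WT1 to WT4. Every NA library was below every WT library, with 230.3 in NA4 and 262.7 in WT2 as the nearest pair. The mean ratio was 0.721, and the log2 fold change was -0.46 with a standard error of 0.13 (95% interval -0.74 to -0.18; limma, adjusted p = 0.0257). WT3 was the highest library; without it the log2 fold change was -0.36 (adjusted p = 0.0684), and without NA4 and WT4 -0.51 (adjusted p = 0.130). The call was also lost without NA2 (adjusted p = 0.0581) and without WT4 alone (adjusted p = 0.0702).

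Other genes of the IGF pathway were read from a list of 20 ligands, receptors, binding proteins and adaptors, of which 8 were tested. In this list 1 gene rose and 1 fell, beside 10.1% called higher and 7.87% called lower over all genes tested. The median log2 fold change of the list was 0.10. Shc1, an adaptor that links growth factor receptors to RAS, rose from 109 ± 2.54 to 248 ± 51.0 normalised counts, by 1.16 on the log2 scale (limma, adjusted p = 0.000274), and was still called without NA4 and WT4 (adjusted p = 0.00747). Igfbp4, a secreted protein that binds IGFs, fell from 565 ± 69.3 to 398 ± 19.2 counts, a log2 fold change of -0.50 (adjusted p = 0.00586, and 0.0548 without NA4 and WT4). The signalling receptors did not pass: Igf1r averaged 20.1 ± 8.02 in NA against 21.6 ± 8.51 in WT libraries (adjusted p = 0.870) and Insr at 257 ± 42.5 and 258 ± 62.1 (adjusted p = 0.966). The 95% interval of the log2 fold change was -0.99 to 0.75 for Igf1r and -0.36 to 0.39 for Insr. M6pr, the smaller mannose 6-phosphate receptor, which does not bind IGF2, was at 1038 ± 49.0 and 978 ± 95.4 (adjusted p = 0.524). Of the 12 genes below the filter, 5 were at 0 in every library, namely Irs1, Igfbp1, Igfbp2, Igf2bp1 and Igfals.

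**Figure D2:**
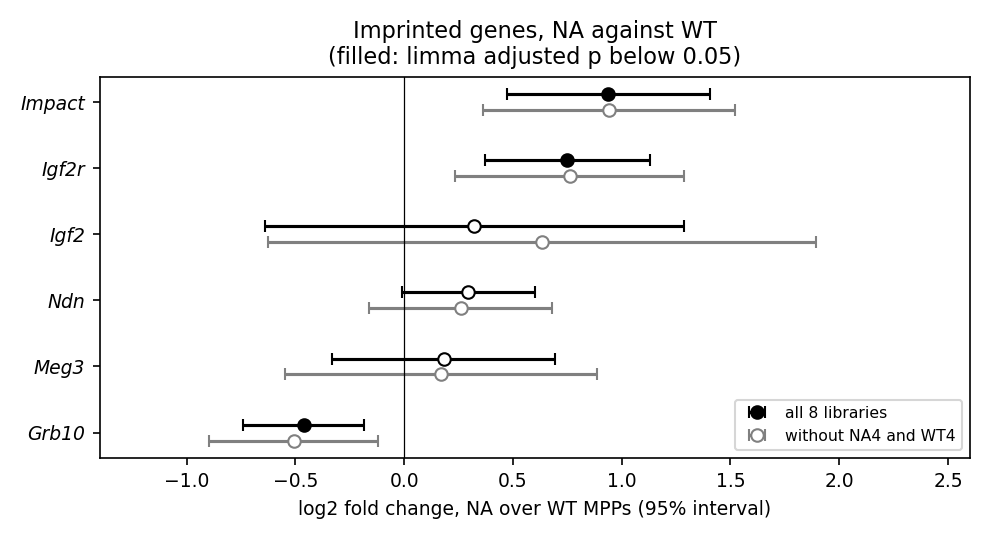
Log2 fold change of NA over WT MPPs with its 95% interval for the 6 tested imprinted genes, from all 8 libraries (black) and without NA4 and WT4 (grey), filled where limma's adjusted p was below 0.05. Impact (0.94), Igf2r (0.75) and Grb10 (-0.46) are filled with all 8 libraries, and no gene is filled without NA4 and WT4 although the estimates of these 3 hardly move.

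Impact holds back GCN2, the kinase that slows protein synthesis when amino acids run short. It had the largest change and the highest level of the 6 tested genes (ENSMUSG00000024423). Its normalised counts were 481.7, 786.8, 908.5 and 739.4 in NA1 to NA4 and 261.0, 570.8, 324.5 and 388.0 in WT1 to WT4. The groups overlapped, since WT2 was above NA1. The mean ratio was 1.89, and the log2 fold change was 0.94 with a standard error of 0.22 (95% interval 0.47 to 1.41; limma, adjusted p = 0.00946). Without NA4 and WT4 it was 0.94 with adjusted p = 0.0644.

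Ndn encodes necdin, a growth suppressor known for a part in stem cell quiescence, and lies on chromosome 7 (ENSMUSG00000033585; 62346569 to 62350262, plus strand). Its normalised counts were 309.0, 277.3, 202.2 and 288.2 in NA1 to NA4 and 233.5, 202.7, 212.9 and 217.5 in WT1 to WT4. NA1, NA2 and NA4 were above every WT library, and NA3 was below every WT library. The log2 fold change was 0.30 with a standard error of 0.14 (95% interval -0.01 to 0.60; limma, adjusted p = 0.169). Without NA3 it was 0.43 and passed (adjusted p = 0.0275), and without NA4 and WT4 it was 0.26 (adjusted p = 0.493).

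NA3 also stood apart in the sum of a list of markers of another cell type, though not in each marker. The summed level of 10 stromal and mesenchymal markers was 296 normalised counts in NA3, 113 to 144 in the other NA libraries and 118 to 148 in the WT libraries. Cxcl12 was at 101 in NA3 and 28.3 in NA4, and at 13.7 or less in the other 6 libraries, while Col3a1 and Lum were at 0 in all 8. Lepr, Sparc, Thy1 and Pdgfrb were also highest in NA3, Pdgfrb at 95.1 being close to NA2 at 90.2. Col1a1 was at 0 in NA3, and Col1a2 at 41.5 was below NA1 at 51.3 and below every WT library. Pdgfra was at 0.923 in NA3 and 1.18 in NA4. Of these 10 markers 3 were tested and 0 were called, beside 17.9% called over all genes tested. Igf2, which such cells can express, was highest in NA3, and the part of these cells in the Igf2 and Ndn values was not tested.

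Meg3 is a long noncoding RNA of the Dlk1-Dio3 cluster, expressed from the maternal copy (ENSMUSG00000021268; chromosome 12, 109541001 to 109571726, plus strand). Its normalised counts were 46.7, 73.3, 48.0 and 49.6 in NA1 to NA4 and 47.1, 51.0, 47.8 and 42.6 in WT1 to WT4. NA2 alone stood above the rest, and the other 7 libraries lay between 42.6 and 51.0. The log2 fold change was 0.18 with a standard error of 0.24 (95% interval -0.33 to 0.69; limma, adjusted p = 0.634) and 0.17 without NA4 and WT4 (adjusted p = 0.823). Of the protein-coding genes of the same cluster, Rtl1 was at 0 in every library and Dlk1 at 3.55 normalised counts or less. Gm26906, on the opposite strand, shares 1228 exon bases with Meg3 and has no row in the table, so some Meg3 reads may belong to it.

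The other 4 genes were near or at the limit of detection, and no fold change is given for them. In a library, 3 estimated reads correspond to 2.66 to 3.54 normalised counts; a gene with 0 reads may lie anywhere below that level, which covers counting error only, as amplified cDNA does not give independent molecules. H19, the maternally expressed noncoding RNA next to Igf2 (ENSMUSG00000000031; chromosome 7, 142575529 to 142578143, minus strand), had 2 estimated reads in WT2 and 0 in the other 7 libraries. Mest, which encodes a hydrolase-like protein (ENSMUSG00000051855; chromosome 6, 30723547 to 30748465, plus strand), had 1, 3, 0 and 1 reads in NA1 to NA4 and 1, 0, 0 and 1 in WT1 to WT4. Neither gene went above 3 reads in any library. Mest shares 912 exon bases with Copg2 on the opposite strand, so even these few reads are uncertain.

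Peg3 and Plagl1 encode zinc finger transcription factors that restrain or steer growth. Peg3 (ENSMUSG00000002265; chromosome 7, 6703892 to 6730431, minus strand) had 0, 3, 0 and 0 estimated reads in NA1 to NA4 and 8, 0, 11 and 7 in WT1 to WT4, which is 3 in all against 26. WT1, WT3 and WT4 were above the floor and no NA library was, but WT2 had none. Plagl1 (ENSMUSG00000019817; chromosome 10, 13060504 to 13131694, plus strand) had 17, 0, 0 and 3 reads in NA1 to NA4 and 1, 3, 0 and 4 in WT1 to WT4. Most of its NA reads came from NA1 alone. With no filter on low values, the limma adjusted p was 0.154 for Peg3, 0.510 for Mest, 0.560 for H19 and 0.883 for Plagl1.

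**Figure D3:**
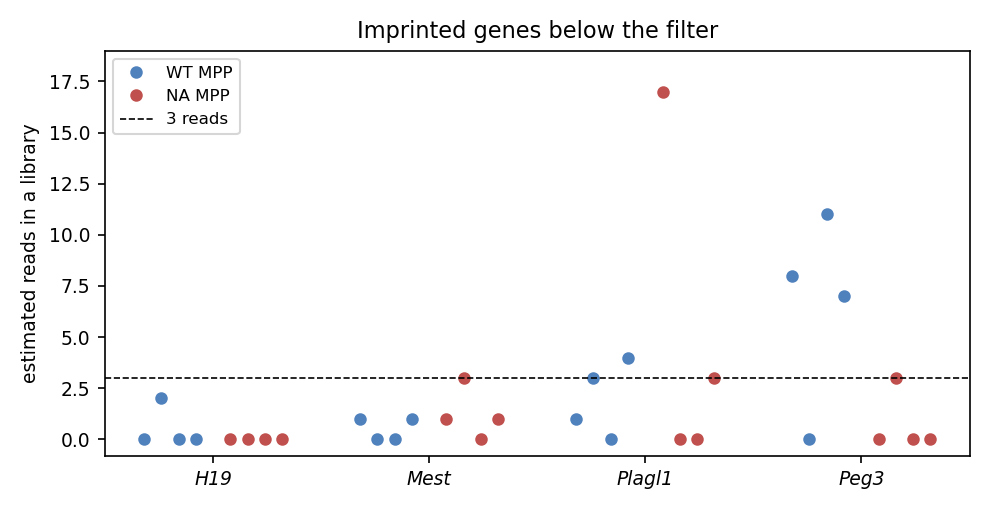
Estimated reads per library of the 4 imprinted genes below the filter, with WT MPP libraries in blue, NA MPP libraries in red and a dashed line at 3 reads. Peg3 lies above the line in 3 WT libraries (7 to 11 reads) and Plagl1 reaches 17 reads in NA1, while H19 and Mest stay at or below the line.

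Levels of the genes were compared per kilobase of the longest annotated transcript, as the mean normalised count per kilobase over the 8 libraries. Impact came first at 148, above 79.3% of the genes tested, followed by Ndn at 65.8, Grb10 at 50.3, Igf2r at 15.0, Igf2 at 4.02 and Meg3 at 3.49, and then Plagl1 at 0.648, Peg3 at 0.412, Mest at 0.315 and H19 at 0.124. Igf2 and Meg3 were above only 3.82% and 2.90% of the genes tested. These ranks depend on the length used, which was 14.55 kb for Meg3 and 4.72 kb for Igf2. Before division by length Meg3 was the higher of the pair. It averaged 54.4 normalised counts in NA and 47.1 in WT libraries, against 20.9 and 17.0 for Igf2. Which transcripts the MPPs used was not tested. On this per-kilobase scale Ndn and Grb10 were not separated in WT MPPs, where their libraries ranged from 54.9 to 63.2 and from 51.9 to 71.1. In NA MPPs they ranged from 54.7 to 83.6 and from 39.5 to 45.5 and did not overlap. Igf2 and Meg3 overlapped in both groups, as did the 4 lowest genes, while every other pair of neighbours among the 6 tested genes was separated in both groups.

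The genes with the most similar pattern over the 8 libraries were found by Pearson's r of log2(normalised count + 1) among the 11451 genes tested, as a description, since the points share their libraries and depth. For Impact they were Skil, a SMAD co-repressor (r = 0.997), and Tnfaip3, a feedback inhibitor of NF-κB (r = 0.992). Tnfaip3 was at 306, 659, 868 and 637 normalised counts in NA1 to NA4 and 115, 463, 129 and 204 in WT1 to WT4, so NA1 and WT2 took the same places in their groups as they did for Impact. For Igf2r they were Prkce (r = 0.989) and Dennd1a (r = 0.986), and for Grb10 BC064078 (r = 0.990) and Mien1 (r = 0.972). For Ndn they were Kansl2 and Wee1 (r = 0.984 each), for Meg3 Rngtt (r = 0.984) and Ccdc43 (r = 0.949), and for Igf2 Copa (r = 0.947) and Hoxb5 (r = 0.924).

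A separate list held 45 other imprinted genes, drawn up from general knowledge of the mouse. Whether they are imprinted in MPPs was not measured. Of these, 38 matched a row and 21 were tested; 3 were called higher and 3 lower, beside 17.9% called over all genes tested, and the median log2 fold change was 0.22. The higher genes were Gatm, which makes the precursor of creatine (1.004, limma adjusted p = 0.00789), Sgce, a sarcoglycan (0.81, adjusted p = 0.0216), and Ube3a, a ubiquitin ligase (0.70, adjusted p = 0.00472). The lower genes were Copg2, a coat protein of Golgi vesicles (-0.80, adjusted p = 0.0472), Slc22a3, an organic cation transporter (-0.71, adjusted p = 0.0184), and Trappc9, a vesicle tethering protein (-0.57, adjusted p = 0.0266). Slc22a3 lies in the same imprinted cluster as Igf2r and went the other way. None of the 6 was called without NA4 and WT4 by limma, with adjusted p from 0.0563 to 0.237, and 4.58% of all genes tested were called. Cdkn1c, the p57 cell cycle inhibitor of the cluster beside Igf2 and H19, averaged 82.1 ± 29.9 in NA against 77.6 ± 6.74 in WT libraries, a log2 fold change of 0.02 (adjusted p = 0.963). Of the 17 genes below the filter, 9 were at 0 in all 8 libraries, namely Kcnq1, Rtl1, Magel2, Peg10, Zim1, Usp29, Slc22a2, Dcn and Kcnk9.

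Genes that keep imprints were read from a list of 13, of which 9 were tested. Dnmt3a, a de novo DNA methyltransferase, rose from 224 ± 13.5 to 313 ± 18.5 normalised counts, by 0.48 on the log2 scale (limma, adjusted p = 0.0106, and 0.0951 without NA4 and WT4), and no gene of the list was called lower. Dnmt1, the maintenance methyltransferase, averaged 359 ± 27.4 in NA against 403 ± 77.4 in WT libraries (adjusted p = 0.453), and Trim28, the co-repressor that ZFP57 recruits, at 770 ± 131 and 918 ± 50.5 (adjusted p = 0.110). Dnmt3a was the only gene called of the 9 tested, beside 17.9% called over all genes tested, and the median log2 fold change of the list was 0.29. Zfp57 itself was low, at 0 to 8.31 normalised counts.

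**Figure D4:**
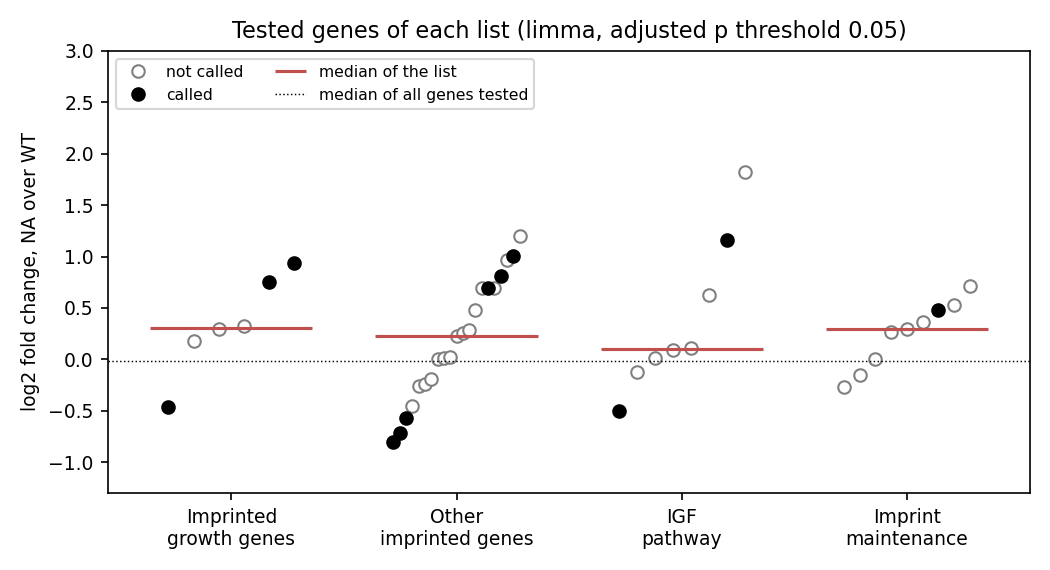
Log2 fold change of NA over WT MPPs for the tested genes of 4 lists, with 1 point per gene, filled where limma's adjusted p was below 0.05, a red line at the median of the list and a dotted line at the median of all genes tested (-0.01). Called genes lie on both sides of 0 in the 10 imprinted growth genes (2 higher, 1 lower), the other imprinted genes (3 and 3) and the IGF pathway (1 and 1). Over all genes tested, 10.1% were called higher and 7.87% lower.

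Markers of other blood cells moved between the same groups. Of 10 long-term stem cell markers, 4 were called higher and 1, Tek, lower, against 17.9% called over all genes tested. Without NA4 and WT4 2 were called higher and 1, again Tek, lower, against 4.58% called over all genes tested. The log2 fold change of Tek was -0.91 (limma, adjusted p = 0.0128, and 0.0477 without NA4 and WT4). The summed level of the 10 markers was 6313 to 7323 normalised counts in NA and 4367 to 4486 in WT libraries. It came mostly from Hlf, a stem cell transcription factor (log2 fold change 0.93, limma adjusted p = 1.86e-06). The 9 erythroid markers summed to 43.7 to 72.4 in NA and 165 to 306 in WT libraries, and the 9 granulocyte and monocyte markers to 3124 to 3369 and 3570 to 4591 with Elane at 0. Sums of 7 B cell markers (101 to 239 in NA, 182 to 269 in WT) and 6 T cell markers (113 to 200, and 183 to 302) overlapped between the groups, those of 6 megakaryocyte markers (2768 to 3044, and 2570 to 2717) and 6 endothelial markers (619 to 670, and 516 to 579) did not, and Cdh5, Pax5, Igll1, Cd3e, Cd3d, Cd3g and Cd8a were at 0. Of the sort markers, Kit, Flt3 and Cd34 did not pass the test (adjusted p = 0.169, 0.554 and 0.359), Ly6a, which encodes Sca1, was lower by limma (-0.28, adjusted p = 0.0257, and 0.163 without NA4 and WT4), and Cd48, the marker selected against, averaged 17.7 in NA against 56.1 in WT libraries (-1.58, adjusted p = 0.00711, and 0.0675 without NA4 and WT4). Fewer cells of a type and less RNA per cell cannot be told apart in bulk libraries, and the part of these cells in the values of Igf2r, Impact and Grb10 was not tested.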

How the data were processed

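RNA of 4 NA and 4 WT MPP libraries was analysed, grouped by the sample titles. According to the labels and the submitters' processing notes, the authors used bcl2fastq, RSEM, DESeq2 and mm10; versions, the annotation and strand use are not given in the sources used here. The file name speaks of raw counts, yet what the authors deposited behaves as a normalised signal, RSEM's estimated counts after division by a size factor. Low values fell on a ladder whose step was 0.888 to 1.18 depending on the library, to within 0.05 of a step for 98.3% to 98.8% of values over 0.5, and values divided by that step gave estimated reads, used for depth and floors.

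Symbols and positions came from GENCODE M21, which named 32916 of 37980 rows. The plan expected normalised values from earlier work on these data and set a log-scale test, with a count test only for raw counts. Accordingly, limma 3.58.1 (R 4.3.3) was run on log2(normalised count + 1), NA against WT, two-sided and without covariates. It was run on genes of at least 10 in 4 libraries, after a test on simulated data. Values up to 1e-06 were set to 0. Fold changes on this scale understate changes of low genes. Alternatives were the pseudocount, filter, scaling, replicates, replicate block, depth, variance trend and GC content. The imprinted genes, marker lists and tests were chosen with earlier results of these data known; all 10 members are named, and of other lists those called and those at 0, with some uncalled genes (Igf1r, Insr, M6pr, Cdkn1c, Dlk1, Dnmt1, Trim28, Zfp57, Cxcl12) chosen after their values were seen.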

Additional observations from a re-analysis of the deposited data

Results flagged for a closer look

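Single libraries stood apart in 6 of 25 groups of 4 values examined by Dixon's ratio. Its chance rate of about 1 in 20, or 1.25 groups, is for normally distributed values. That rate does not hold for genes near 0 reads, so 6 and 1.25 cannot be set against each other. Igf2 in WT2 was at 6.79 normalised counts, with the other WT libraries at 20.4 to 20.5. Meg3 in NA2 was at 73.3, with the other NA libraries at 46.7 to 49.6. H19 in WT2 was at 2.26 and Peg3 in NA2 at 2.82, with the other 3 libraries of each group at 0, and both values are at or below 3 estimated reads. The ratio always flags a group with 3 values at 0 and 1 above it, whatever that value is. The stromal and mesenchymal marker sum in NA3 was 296 normalised counts, with 113 to 144 in the other NA libraries. NA4 had 3887847 estimated reads, with 4909391 to 4916987 in the other NA libraries.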

How the results depend on the processing

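Igf2r, Impact, Ndn and Meg3 stayed higher and Grb10 lower in NA MPPs under every alternative run. Leaving out NA4 and WT4 cut the genes called from 2053 to 524 and the imprinted genes called from 3 to 0, and without the variance trend 1 imprinted gene, Igf2r, was called (adjusted p = 0.0594 for Impact and 0.0502 for Grb10). Leaving out 1 library at a time gave 1125 (without NA4; 1279 without WT4) to 2176 genes called, 2 to 4 imprinted genes, and log2 fold changes of Igf2 from -0.043 to 0.513. Grb10 also failed with depth as a covariate (adjusted p = 0.0636), without NA2 (0.0581), without WT3 (0.0684) and without WT4 (0.0702); Ndn passed without NA3 (0.0275). The cause was not tested. The split of all calls was 1152 higher and 901 lower, against 925 and 1314 scaled to equal totals (median of all genes -0.08) and 951 and 1108 scaled to the upper quartile; the same 3 imprinted genes were called under both. Igf2 was not tested under the filter on a mean of 50. With the replicate block 2004 genes and 3 imprinted genes were called. The correlation of same-numbered libraries was 0.09, 0.03, 0.01 and 0.16, and 2 of the 4 numbers matched best. Whether same-numbered libraries shared handling was not tested. Depth limits H19 and Mest, at 3 reads or fewer in every library, and Peg3 and Plagl1, at most 11 and 17.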
